A study of Mus musculus with 2 samples.

Results

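The genes described here are 8 type I interferon response genes, Oas1a, Rtp4, Bst2, Ifit1, Ifit3, Isg15, Irf7 and Ifitm3. They were chosen by symbol from the 32285 genes in the deposited feature tables, and all 8 were found. Their RNA was measured with Visium, an assay in which a tissue section lies on barcoded spots and each spot can cover several cells of different types. There was 1 transverse heart section from a PD1 KO mouse (PD1 -/-) and 1 from a PD1 Het mouse (PD1 +/-), so the control carries 1 disrupted PD-1 allele too. Both mice were C57BL/6 animals whose left anterior descending artery was ligated at postnatal day 2, and both hearts were collected 7 days later. No unoperated heart and no wild type heart was analysed here, and how the alleles were made is not given in the sources used here.

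Type I interferons are secreted when a cell senses foreign or misplaced nucleic acid. They bind a receptor of the subunits IFNAR1 and IFNAR2, whose kinases JAK1 and TYK2 activate transcription factors. With IRF9 these form a complex that binds the interferon-stimulated response element (ISRE) in the promoters of antiviral genes. In infarcted hearts of adult mice, macrophages that take up DNA from dying cells are known for this response.

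With 1 section per genotype no test is possible, so no p-value is given and all values describe these 2 libraries. Unique molecular identifiers (UMIs), which count captured RNA molecules, were summed over spots with at least 500 UMIs. The PD1 KO section kept 851 spots with 23520499 UMIs and the PD1 Het section 811 spots with 12814494 UMIs, at medians of 27134 and 15475 UMIs per spot. The mitochondrial share was 15.9% in the PD1 KO section and 25.6% in the PD1 Het section. The sections also differed in sex-linked transcripts, with 1 Xist UMI and 2900 Y-linked UMIs in the PD1 KO section against 541 and 1 in the PD1 Het section, so sex and genotype cannot be told apart. All 12 ventricular cardiomyocyte markers were present, with summed levels of 80679 CPM (counts scaled to a common total per section) in the PD1 KO section and 81048 CPM in the PD1 Het section. The sections share 225 spot barcodes, which name positions on the array and not cells. Intervals in brackets are 95% exact intervals for counting error only. In whole tissue, fewer cells of a type and less RNA per cell cannot be told apart.

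The promoter stretches that hold the ISRE core are shown first, because this element defines the response. The core searched for was GAAANNGAA on both strands, in windows from 250 bases before to 50 bases after the RefSeq gene start (GRCm38.p6). Of the 8 genes, 7 had a window and 6 of these held the core, against 8.56% of all 32851 windows. Each sequence below runs 5′ to 3′ on the gene's own strand, with the core in capitals. Where the core lies on the other strand it reads TTCNNTTTC.
Ifit1 (chr19:34640755-34640838, plus strand): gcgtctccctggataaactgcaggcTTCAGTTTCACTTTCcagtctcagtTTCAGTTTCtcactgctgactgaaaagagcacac
Ifit3 (chr19:34583349-34583460, plus strand): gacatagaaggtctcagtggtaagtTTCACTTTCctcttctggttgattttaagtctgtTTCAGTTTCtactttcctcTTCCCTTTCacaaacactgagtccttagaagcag
Isg15 (chr4:156200851-156200921, minus strand): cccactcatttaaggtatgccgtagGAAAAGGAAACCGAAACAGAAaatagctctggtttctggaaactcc
Oas1a (chr5:120907506-120907570, minus strand): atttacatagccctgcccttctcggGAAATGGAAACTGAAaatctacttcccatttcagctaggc
Bst2 (chr8:71537563-71537627, minus strand): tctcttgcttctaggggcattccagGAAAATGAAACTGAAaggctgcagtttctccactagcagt
Ifitm3 (chr7:141010695-141010767, minus strand): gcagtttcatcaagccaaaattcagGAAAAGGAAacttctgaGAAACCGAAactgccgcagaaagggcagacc

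Ifit1, Ifit3 and Isg15 each held 3 cores, and Oas1a, Bst2 and Ifitm3 held 2 each. In Isg15 the cores overlapped one another and began 78, 72 and 66 bases before the start. In Ifit1 they began 109, 103 and 84 bases before it, and in Ifit3 155, 121 and 102 bases before it. The cores of Ifitm3 began 2 and 19 bases past the start. The Irf7 window (chr7:141266375-141266674, minus strand) held none of these letters. The GAS element of interferon gamma signalling, searched as TTCNNNGAA on both strands, was present in 3 of the windows, those of Oas1a, Bst2 and Ifitm3, against 8.30% of all windows. In Bst2 and Ifitm3 it overlapped an ISRE core. A match is a string of letters and was not tested as a binding site.

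None of the ligands was detected. The 17 listed type I interferon genes (Ifnb1, the Ifna genes, Ifnab, Ifne and Ifnk) had 0 UMIs in both sections, which allows up to 0.128 CPM for their sum in the PD1 KO section and 0.234 CPM in the PD1 Het section. The response genes themselves were all present, and their levels spanned a wide range in each section. By CPM, the interval of the ratio of PD1 KO over PD1 Het lay above 1 for Rtp4 and Ifitm3 and below 1 for Irf7 and Oas1a. The share of all genes with an interval that leaves out 1 was not counted, and most genes had a higher CPM in the PD1 KO section. Summed over the 8 genes, the level was 239.6 CPM in the PD1 KO section (5635 UMIs) and 216.8 CPM in the PD1 Het section (2778 UMIs), a ratio of 1.11 (1.06 to 1.16).

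Irf7, the transcription factor that amplifies interferon production (ENSMUSG00000025498, chromosome 7, 141262706 to 141266481, GRCm38), had 119 UMIs in the PD1 KO section and 92 in the PD1 Het section. This is 5.06 CPM (4.19 to 6.05) in the PD1 KO section and 7.18 CPM (5.79 to 8.80) in the PD1 Het section, a ratio of 0.70 (0.53 to 0.94). The intervals of the 2 levels overlapped slightly, while that of the ratio stayed below 1. The last 45 bases of Irf7 overlap Phrf1 on the other strand. Whether the counting used strand is not given in the sources used here, so reads from these bases cannot be told apart.

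Oas1a makes short adenylate chains when double-stranded RNA is present (ENSMUSG00000052776, chromosome 5, 120896256 to 120907521). It had 13 UMIs in 13 spots of the PD1 KO section and 25 UMIs in 25 spots of the PD1 Het section. These counts correspond to 0.553 CPM (0.294 to 0.945) in the PD1 KO section and 1.95 CPM (1.26 to 2.88) in the PD1 Het section, which do not overlap. The ratio was 0.28 (0.13 to 0.58). Of the 31-base words in the last 400 bases of its transcript, 61.9% also occur in Oas1g, so reads of these near-identical genes can be split or lost in counting and the count is uncertain. Oas1g itself had 4 UMIs in the PD1 KO section and 1 in the PD1 Het section.

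Isg15, a ubiquitin-like protein that is attached to other proteins (ENSMUSG00000035692, chromosome 4, 156199424 to 156200818), had 162 UMIs in the PD1 KO section and 89 in the PD1 Het section. Its level was 6.89 CPM (5.87 to 8.03) in the PD1 KO section and 6.95 CPM (5.58 to 8.55) in the PD1 Het section. The ratio was 0.99 (0.76 to 1.30), and at this depth no difference could be seen. Of the 31-base words in the last 400 bases of its transcript, 12.7% occur in other genes.

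Ifit1, which binds foreign RNA by the structure of its cap (ENSMUSG00000034459, chromosome 19, 34640871 to 34650009), had 39 UMIs in the PD1 KO section and 24 in the PD1 Het section, or 1.66 CPM (1.18 to 2.27) and 1.87 CPM (1.20 to 2.79). Its relative Ifit3 (ENSMUSG00000074896, chromosome 19, 34583531 to 34588731) had 63 UMIs in the PD1 KO section and 37 in the PD1 Het section, or 2.68 CPM (2.06 to 3.43) and 2.89 CPM (2.03 to 3.98). The intervals of both genes overlapped almost entirely. The ratios were 0.89 (0.52 to 1.54) for Ifit1 and 0.93 (0.61 to 1.43) for Ifit3. In Ifit3, 30.5% of the 31-base words near the transcript end also occur in Ifit3b, which had 20 UMIs in the PD1 KO section and 8 in the PD1 Het section.

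Rtp4 encodes an interferon-induced member of the receptor transporter protein family (ENSMUSG00000033355, chromosome 16, 23520291 to 23614222). It had 215 UMIs in the PD1 KO section and 73 in the PD1 Het section. The levels were 9.14 CPM (7.96 to 10.4) in the PD1 KO section and 5.70 CPM (4.47 to 7.16) in the PD1 Het section and did not overlap. The ratio was 1.60 (1.23 to 2.12). No 31-base word of its transcript ends occurs in another gene. At its 5′ side the annotated gene overlaps Gm45338 on the same strand and Masp1 on the other strand.

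Bst2 and Ifitm3, both membrane proteins, had most of the UMIs of the group. Bst2 (tetherin), which holds budding viruses at the cell surface (ENSMUSG00000046718, chromosome 8, 71534255 to 71537456), had 981 UMIs in the PD1 KO section and 517 in the PD1 Het section. Its level was 41.7 CPM (39.1 to 44.4) in the PD1 KO section and 40.3 CPM (36.9 to 44.0) in the PD1 Het section, a ratio of 1.03 (0.93 to 1.15). Ifitm3, an endosomal protein that blocks virus entry (ENSMUSG00000025492, chromosome 7, 141009586 to 141010770), had 4043 UMIs in the PD1 KO section and 1921 in the PD1 Het section. Its level was 171.9 CPM (166.6 to 177) in the PD1 KO section and 149.9 CPM (143 to 157) in the PD1 Het section, a ratio of 1.15 (1.09 to 1.21). Of the 31-base words near its end, 26.2% occur in other genes, among them Ifitm1 and Ifitm2.

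**Figure D1:**
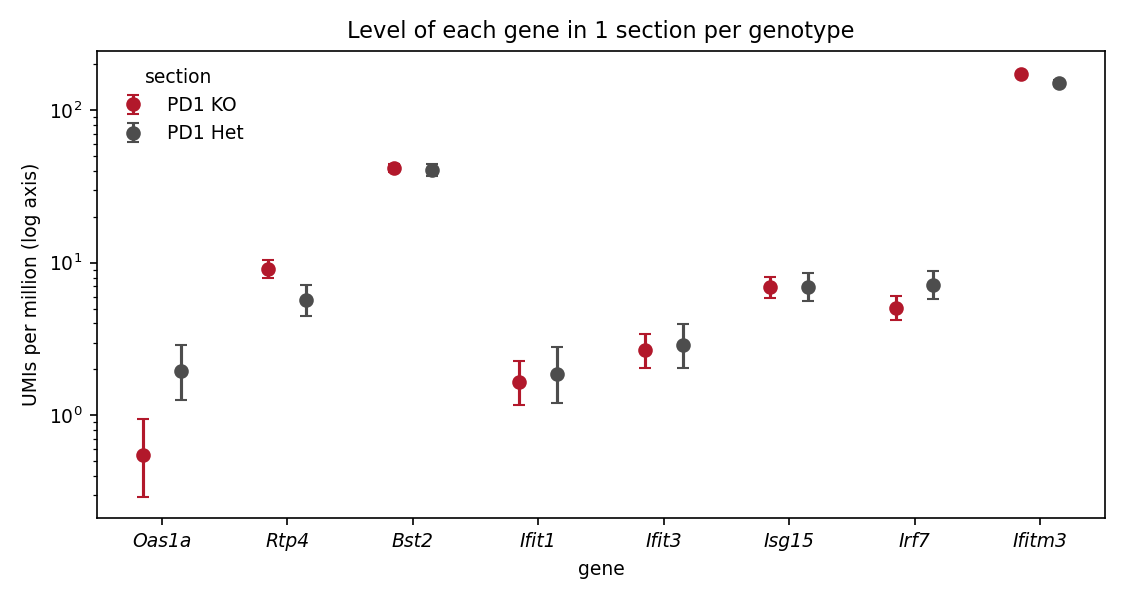
Level of each of the 8 genes in the PD1 KO section (red) and the PD1 Het section (grey), in CPM on a log axis, with 95% Poisson intervals of the counts. The intervals of Oas1a (lower in PD1 KO), Rtp4 and Ifitm3 (higher in PD1 KO) do not overlap between the sections.

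Most genes had a higher CPM in the PD1 KO section, and the median over 14714 genes (those whose UMIs of both sections add up to 10 or more) was a log2 ratio of 0.32, which is 1.25-fold. Set against this median gene, 7 of the 8 genes lay on the lower side. The relative log2 ratios of PD1 KO over PD1 Het were -2.14 (-3.23 to -1.12) for Oas1a, -0.83 (-1.23 to -0.42) for Irf7, -0.28 (-0.43 to -0.12) for Bst2 and -0.13 (-0.21 to -0.05) for Ifitm3. For Bst2 and Ifitm3 the sign thus differs from that of the CPM ratio (0.05 and 0.20 on the log2 scale). Ifit1 lay at -0.50, Ifit3 at -0.43 and Isg15 at -0.34, with intervals that reached 0, and Rtp4 at 0.36 (-0.03 to 0.76). The median over the 8 genes was -0.39 on this relative scale, while by CPM it was -0.07. Past 1.5-fold above the median gene were 0 of the 8, against 8.59% of all genes, and past 1.5-fold below it were 2 of the 8, Oas1a and Irf7, against 7.17% of all genes. Among genes with at least 100 UMIs, which leaves 6 of the 8 with Irf7 alone below, these shares were 5.48% and 3.17%. For the summed level the scaling set the sign, since the log2 ratio was 0.14 by CPM and -0.16 with edgeR TMM factors.

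Of the 7 genes of the receptor and its signalling, 2 were past 1.5-fold above the median gene, beside 8.59% of all genes, and 0 below, beside 7.17%. The list ran from -0.11 to 0.78 with a median of 0.27. Ifnar1, a subunit of the receptor, had 26.6 CPM in the PD1 KO section and 12.3 CPM in the PD1 Het section, at 0.78 (0.53 to 1.04) relative to the median gene. Irf9, the DNA-binding part of the complex named above, had 18.8 CPM in the PD1 KO section and 9.29 CPM in the PD1 Het section, at 0.70 with an interval that left out 0. Jak1 lay at 0.28 (0.14 to 0.42) and the other receptor subunit Ifnar2 at 0.06 (-0.12 to 0.24).

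The brakes of the pathway, Usp18, Socs1, Socs3, Ptpn2 and Pias1, had a median of 0.14, with 0 of 5 past 1.5-fold either way. Of all genes, 8.59% lay past 1.5-fold above the median gene and 7.17% below it. Usp18, which removes ISG15 from proteins and blocks the receptor, had 67 UMIs in the PD1 KO section and 34 in the PD1 Het section and lay at -0.22 (-0.84 to 0.42). Socs3 lay at -0.20 (-0.75 to 0.37), Ptpn2 at 0.20 (-0.04 to 0.44) and Pias1 at 0.14 (-0.12 to 0.40). Nucleic acid sensors and their adaptors had a median of -0.03, with 0 of 15 above, beside 8.59% of all genes, and 1 below, beside 7.17%. The gene below was Irf5, a transcription factor of macrophages, at -0.70 (-1.23 to -0.16), with 3.19 CPM in the PD1 KO section and 4.14 CPM in the PD1 Het section. Tbk1, the kinase that activates IRF3, lay at 0.49 (0.20 to 0.79), Irf3 at -0.29 (-0.45 to -0.13) and Mavs, the adaptor of the RNA sensors, at -0.05 (-0.23 to 0.14).

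Relatives of the 8 genes were measured in the same way. Of the listed OAS relatives of Oas1a, 4 had at least 10 UMIs. Oasl2 lay at 0.02 (-0.35 to 0.41), Oasl1 at -0.20 (-1.51 to 1.23), Oas1c at 0.30 (-0.68 to 1.39) and Oas2 at 0.87 (-0.58 to 2.63), so all 4 intervals included 0. Among IFIT and IFITM relatives, 1 of 9 lay above, beside 8.59% of all genes, and 0 below, beside 7.17%, at a median of -0.03. Ifitm2 lay at 0.07 (-0.02 to 0.16), Ifitm1 at -0.29 (-0.62 to 0.05), and Ifit1bl2, the gene above, at 0.67 (-0.42 to 1.92) on 33 UMIs in the PD1 KO section and 9 in the PD1 Het section.

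The enzymes that attach ISG15 to proteins had a median of 0.06, with 1 of 4 above, beside 8.59% of all genes, and 0 below, beside 7.17%. The ligase Herc6 lay at 0.88 (0.21 to 1.60) and Trim25 at 0.34 (0.19 to 0.49), while the activating enzyme Uba7 lay at -0.21 (-0.43 to 0.02) and the conjugating enzyme Ube2l6 at -0.55 (-0.85 to -0.25). Of 37 other interferon-induced effectors, 3 lay above, beside 8.59% of all genes, and 0 below, beside 7.17%. The 3 above were Trim21, Ifi203 and the chemokine gene Cxcl10, which had 19 UMIs in the PD1 KO section and 3 in the PD1 Het section. The median of the 37 was 0.10, while their sum, which Ly6e leads, lay at -0.03 (-0.07 to 0.00). Trim21, an antibody receptor in the cytosol, lay at 0.93 (0.36 to 1.55), Ifi203 at 0.61 (0.34 to 0.90), Ly6e at -0.03 (-0.11 to 0.04) and Ly6a at -0.16 (-0.28 to -0.05). Over all the pathway lists 9 of 82 genes lay above, beside 8.59% of all genes, and 1 below, beside 7.17% of all genes, at a median of 0.08.

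**Figure D2:**
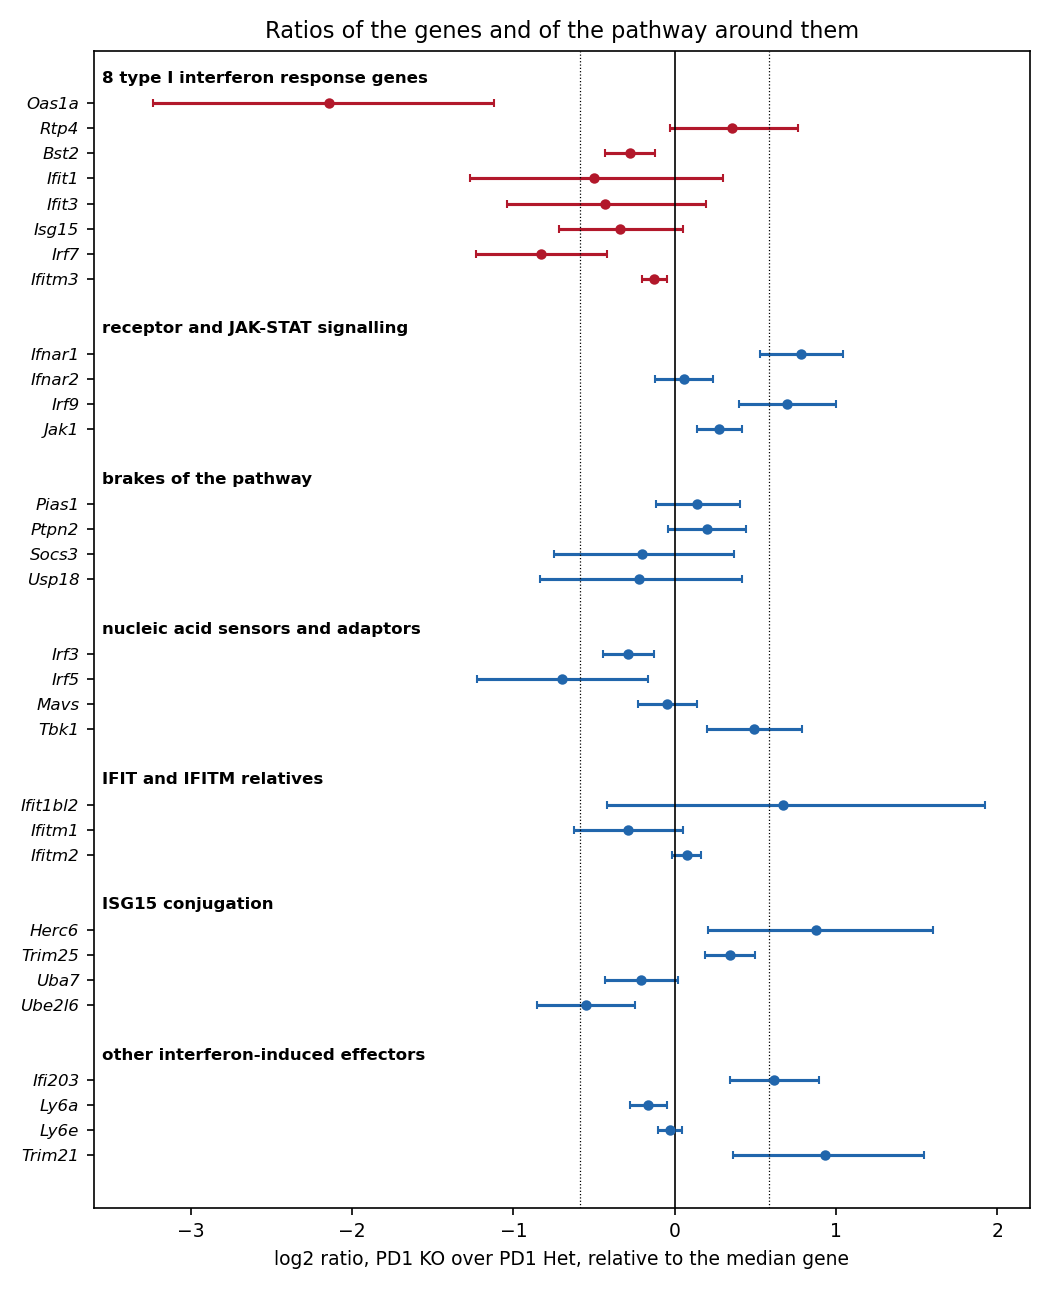
Log2 ratios of PD1 KO over PD1 Het relative to the median gene (solid line at 0), with 95% intervals of counting error, for the 8 genes (red) and for genes named from 6 lists of the pathway (blue). Dotted lines mark 1.5-fold. Oas1a at -2.14, Irf7 at -0.83 and Irf5 lie below them, while Ifnar1, Irf9, Ifit1bl2, Herc6, Trim21 and Ifi203 lie above.

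Ifitm3 was spread over nearly the whole tissue, and the other genes except Bst2 were sparse. Ifitm3 had a UMI in 829 of 851 PD1 KO spots and 688 of 811 PD1 Het spots, with a median of 5 and 2 UMIs per spot and at most 18 and 13. After each spot was thinned to 10000 UMIs, which 839 PD1 KO and 759 PD1 Het spots reach, it was present in 80.0% (77.1 to 82.6) of PD1 KO and 72.9% (69.5 to 76.0) of PD1 Het spots. Bst2 was present in 34.2% (30.998 to 37.5) of thinned PD1 KO spots and 30.04% (26.8 to 33.4) of thinned PD1 Het spots, against 65.9% and 42.2% without thinning.

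The remaining genes were present in under 10% of thinned spots. Their shares were 8.58% (6.78 to 10.7) in the PD1 KO section and 4.74% (3.34 to 6.51) in the PD1 Het section for Rtp4, with no overlap of the intervals. For Isg15 they were 6.79% (5.19 to 8.71) in the PD1 KO section and 6.72% (5.04 to 8.74) in the PD1 Het section, and for Irf7 4.17% (2.92 to 5.75) and 6.46% (4.81 to 8.45). Oas1a had a UMI in 0.358% (0.0738 to 1.04) of thinned PD1 KO spots and 2.24% (1.31 to 3.56) of thinned PD1 Het spots. Neither contrast was seen after thinning to 5000 UMIs. There Rtp4 stood at 3.42% (2.30 to 4.87) in the PD1 KO section and 3.02% (1.94 to 4.46) in the PD1 Het section. Oas1a stood at 0.236% and 0.252%, with overlapping intervals. Ifit3 stood at 3.34% and 3.03%, and Ifit1 at 1.91% and 2.24%, with overlapping intervals. Mitochondrial UMIs, whose share differed between the sections, count toward the thinned total, and their part in these shares was not tested.

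Apart from Ifitm3 and Bst2, the genes were sparse and seldom shared spots. How often genes this sparse would share spots if placed independently was not worked out. After thinning, 22.3% of PD1 KO and 21.5% of PD1 Het spots had a UMI of at least 1 of the 6 genes other than Ifitm3 and Bst2, and 2.62% and 3.56% had at least 2 of the 6. The pair Ifit1 and Ifit3 had a correlation over spots of 0.19 in the PD1 KO section (851 spots) and 0.23 in the PD1 Het section (811 spots), on 4 and 5 spots that held both. The correlation of each gene with the sum of the others lay between -0.0046 and 0.16 in the 2 sections. These counts are sparse, and values of a spot share its depth. In thinned spots the variance of the summed UMIs was 1.26 times its mean in the PD1 KO section. In the PD1 Het section it was 1.62 times. The sum held 2036 thinned UMIs in the PD1 KO section and 1646 in the PD1 Het section. For single genes with at least 100 thinned UMIs the medians of this ratio were 1.04 and 1.06. Those genes were not matched to the sum in level, and the ratio can rise with the mean. The medians therefore cannot show whether the sum was unusually uneven over spots.

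Across the tissue the level was higher where scar matrix made up more of the RNA. Spots were ordered within their section by the fraction of UMIs from 18 matrix genes, such as the collagens and Postn, and divided into 5 bins of equal size, from matrix-poor (bin 1) to matrix-rich (bin 5). In the PD1 KO section the summed level of the 8 genes was 199.8, 212, 244, 259 and 301 CPM from bin 1 to bin 5. In the PD1 Het section it was 162.2, 192, 206, 233 and 306 CPM. It was higher in each next bin of both sections.

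The ratio of bin 5 over bin 1 was 1.51 (1.39 to 1.64) in the PD1 KO section and 1.89 (1.67 to 2.13) in the PD1 Het section, with intervals that do not overlap. With a total that leaves out mitochondrial and red blood cell genes, the log2 ratios were 0.47 in the PD1 KO section and 0.72 in the PD1 Het section and the intervals overlapped. The median log2 ratio of bin 5 over bin 1 among all genes was 0.31 in the PD1 KO section and 0.39 in the PD1 Het section. Of the 8 genes, 7 in the PD1 KO section (Oas1a left out) and 8 in the PD1 Het section had at least 10 UMIs in bins 5 and 1 together, as the rule over all genes asks. Their medians were 0.61 in the PD1 KO section and 1.09 in the PD1 Het section. At least 1.5-fold higher in bin 5 were 4 of the 7 in the PD1 KO section (Ifit1, Ifit3, Irf7 and Ifitm3), against 29.7% of all genes, and 8 of the 8 in the PD1 Het section, against 35.3% of all genes. None of these was at least 1.5-fold lower, against 3.88% of all genes in the PD1 KO section and 2.56% in the PD1 Het section.

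Single genes differed in this pattern. Ifit3 had 6.53 CPM in bin 5 and 0.9497 CPM in bin 1 of the PD1 KO section (25 and 5 UMIs), and 4.87 and 1.84 CPM in those bins of the PD1 Het section (11 and 5 UMIs). Ifit1 had 12 UMIs in bin 5 of each section, against 8 in bin 1 of the PD1 KO section and 2 in bin 1 of the PD1 Het section. Ifitm3 had 220.02 and 143.8 CPM in bins 5 and 1 of the PD1 KO section, a ratio of 1.53 (1.39 to 1.69), and 205 and 117 CPM in the PD1 Het section, a ratio of 1.75 (1.51 to 2.02). Bst2 had 49.4 and 33.1 CPM in bins 5 and 1 of the PD1 KO section, and 56.7 and 26.8 CPM in the PD1 Het section.

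Isg15 had 7.06 and 5.89 CPM in bins 5 and 1 of the PD1 KO section, and 9.74 and 4.41 CPM in the PD1 Het section. Irf7 lay highest in bin 5 of both sections, and Oas1a in bin 5 of the PD1 Het section only. Irf7 had 6.53 and 4.18 CPM in bins 5 and 1 of the PD1 KO section, against 12.4 and 6.25 CPM in the PD1 Het section. Oas1a had 1 of its 13 PD1 KO UMIs in bin 5 and 10 of its 25 PD1 Het UMIs there. Rtp4 had 8.36 CPM in bin 5 and 10.1 CPM in bin 1 of the PD1 KO section, and 7.97 and 4.41 CPM in those bins of the PD1 Het section. The log2 CPM ratio of PD1 KO over PD1 Het for Rtp4 was 1.19 (0.27 to 2.23) in bin 1. In bin 5 it was 0.07 (-0.81 to 0.99), and these intervals overlapped. As in bin 1, the intervals of bins 2 and 3 lay above 0. Relative to the median gene of the same bin, the ratio was 0.85 (-0.07 to 1.89) in bin 1, and the interval included 0 in every bin. The higher level of Rtp4 by CPM was thus not shown to be limited to the matrix-poor spots.

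**Figure D3:**
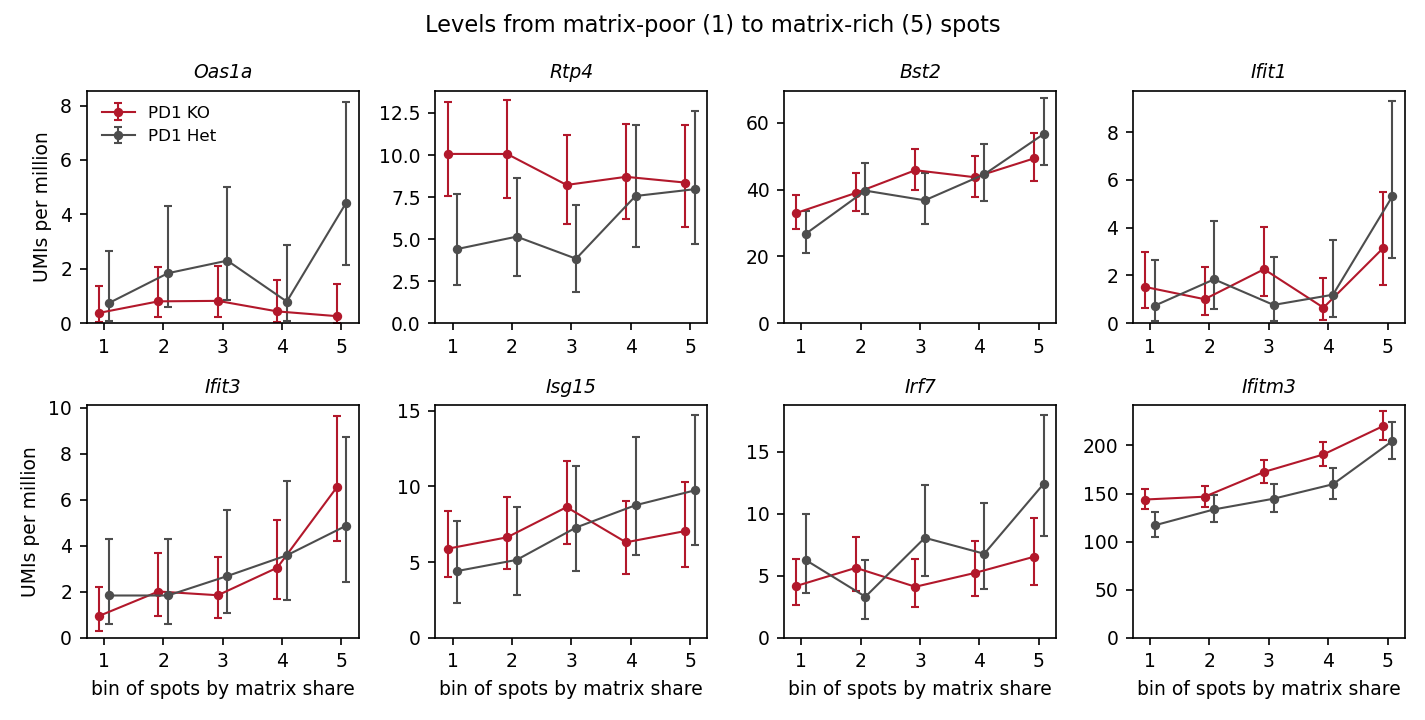
Level of each gene in 5 bins of spots from matrix-poor (1) to matrix-rich (5), in CPM, in the PD1 KO section (red) and the PD1 Het section (grey), with 95% Poisson intervals. Ifitm3, Bst2, Ifit1, Ifit3 and Irf7 are highest in bin 5 of both sections. Oas1a, Isg15 and Rtp4 are highest in bin 5 of the PD1 Het section only, and Rtp4 lies between 8.22 and 10.1 CPM in the PD1 KO section.

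How the sections compared within a bin depended on the scale. In bin 1 the log2 CPM ratio of PD1 KO over PD1 Het was 0.30 (0.14 to 0.46), and in bin 5 it was -0.02 (-0.16 to 0.12). Relative to the median gene of the same bin it was -0.04 (-0.20 to 0.12) in bin 1 and -0.27 (-0.41 to -0.13) in bin 5. All 14 macrophage markers were present in both sections, with a sum of 1301 CPM in bin 5 and 254 CPM in bin 1 of the PD1 KO section, and 694 and 256 CPM in the PD1 Het section. Other markers moved with matrix as well. Fibroblast markers were 3.31-fold higher in bin 5 than in bin 1 of the PD1 KO section and 3.77-fold in the PD1 Het section, endocardial markers 5.15-fold and 8.38-fold, and epicardial markers 6.07-fold and 3.51-fold. Ventricular cardiomyocyte markers stood at 0.740 and 0.826 times their bin 1 level. Endothelial markers had 2134 and 2822 CPM in bins 5 and 1 of the PD1 KO section, and 2115 and 2309 CPM in the PD1 Het section. Red blood cell genes had 4936 and 10346 CPM in bins 5 and 1 of the PD1 KO section, and 10255 and 5096 CPM in the PD1 Het section, so they went opposite ways. The part of these in the levels was not tested.

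Within the matrix-rich bin, spots with more macrophage transcripts had a higher summed level of the response genes. Each bin was split at its median share of macrophage markers. In bin 5 the summed level was 350 CPM (616 UMIs) above and 259.8 CPM (537 UMIs) at or below the median in the PD1 KO section, a log2 ratio of 0.43 (0.26 to 0.60). In the PD1 Het section it was 397 CPM (408 UMIs) above and 230 CPM (283 UMIs) at or below it, a log2 ratio of 0.79 (0.56 to 1.01). In bins 1 to 3 the intervals of this ratio reached 0 in both sections, and in bin 4 it was 0.21 (0.04 to 0.38) in the PD1 KO section and -0.01 (-0.25 to 0.22) in the PD1 Het section. A split by endothelial markers also gave higher levels above the median, and in other bins. Its log2 ratios from bin 1 to bin 5 were 0.27, 0.35, 0.37, 0.21 and 0.22 in the PD1 KO section, all with intervals above 0. Those in the PD1 Het section were 0.41, 0.27, 0.36, 0.18 and 0.16, with intervals that reached 0 in bins 4 and 5. Neither split was made over all genes, so no median gene stands beside these ratios. Matrix share still varied within bin 5, from 1.19% to 11.6% in the PD1 KO section and from 0.80% to 7.74% in the PD1 Het section. Its part in the splits was not tested.

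Single genes were compared in bin 5 by the macrophage split. Irf7 had 19 UMIs in spots above and 6 in spots at or below the median macrophage share in the PD1 KO section, and 20 and 8 in the PD1 Het section, with log2 ratios of 1.89 (0.51 to 3.51) and 1.58 (0.34 to 2.97). Bst2 lay at 0.55 (0.13 to 0.99) in the PD1 KO section and 0.995 (0.46 to 1.54) in the PD1 Het section, and Ifitm3 at 0.39 (0.19 to 0.59) and 0.65 (0.38 to 0.92). For Ifit1, Ifit3, Isg15, Rtp4 and Oas1a the intervals reached 0 or a count was 0, and Rtp4 had 13 UMIs above and 19 at or below the median in the PD1 KO section, against 12 and 6 in the PD1 Het section. Of 8 listed markers of plasmacytoid dendritic cells, the cells known for making type I interferon, 3 had at least 10 UMIs over both sections. In the PD1 KO section 2 of the 8 had 0 UMIs, and in the PD1 Het section 5 had 0. Siglech and Klk1 had 0 UMIs in both sections and Ccr9 had 1 in the PD1 KO section and 0 in the PD1 Het section, while Tcf4, which other heart cells also express, made up 2813 of 2861 UMIs of that list in the PD1 KO section and 1053 of 1083 in the PD1 Het section.

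**Figure D4:**
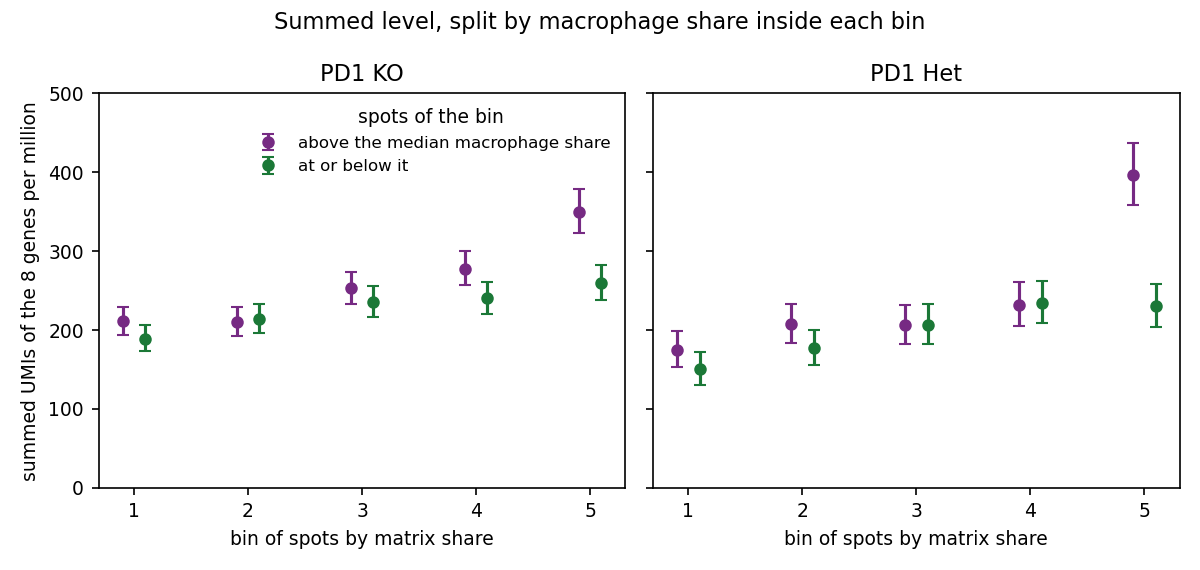
Summed level (CPM) of the 8 genes in each matrix bin, for spots above (purple) and at or below (green) the bin's median share of macrophage markers, with 95% Poisson intervals, in the PD1 KO section (left) and the PD1 Het section (right). In bin 5 the purple points stand at 350 and 397 CPM and the green points at 259.8 and 230 CPM.

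Other rankings were made, by macrophage, endothelial and ventricular cardiomyocyte markers. In the PD1 KO section Oas1a again had under 10 UMIs in the 2 bins compared, which leaves 7 genes. By macrophage share, 3 of 7 genes, Bst2, Ifit1 and Ifit3, were past 1.5-fold higher in the richest over the poorest bin of the PD1 KO section, against 22.5% of all genes, and 0 were past 1.5-fold lower, against 2.51%. Past 1.5-fold higher in the richest bin of the PD1 Het section were 4 of 7, Bst2, Ifit1, Irf7 and Ifitm3, against 23.2% of all genes, and 0 lower, against 2.79%. Oas1a, with 9 UMIs in the richest bin and 0 in the poorest, was not counted there.

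Rtp4 had 14.4 CPM in the bin richest in endothelial markers and 6.78 CPM in the poorest of the PD1 KO section, a ratio of 2.13 (1.37 to 3.37), and 8.62 and 3.63 CPM in the PD1 Het section, a ratio of 2.38 (1.04 to 5.89). Rtp4 was the single gene of the 7 past 1.5-fold higher in the endothelium-rich bin of the PD1 KO section, against 7.29% of all genes, and 0 were lower, against 8.58%. In the PD1 Het section 3 of 8, Oas1a, Rtp4 and Irf7, were higher, against 9.25% of all genes, and 1, Ifit1, was lower, against 7.34%. By ventricular cardiomyocyte share, Ifit1 and Ifit3 were lower in the cardiomyocyte-rich bin of the PD1 KO section, with 0.848 and 2.97 CPM for Ifit1 in the richest and the poorest bin and 1.48 and 5.19 CPM for Ifit3. These 2 of 7 stand beside 16.7% of all genes lower, and 1 of 7, Rtp4, was higher, beside 6.66% of all genes. In the PD1 Het section Ifit1 had 0.856 and 3.06 CPM in those bins, and Ifit3 4.28 and 2.68 CPM, with intervals of the ratio that included 1 for both. In that section 1 of 8, Ifit3, was past 1.5-fold higher, beside 10.5% of all genes, and 2 of 8, Oas1a and Ifit1, lower, beside 13% of all genes.

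The genes whose pattern over spots was most like the summed level were sought among 6128 genes with at least 200 UMIs in each section, by the lower of the 2 sections' Pearson correlations on log counts per 10000 UMIs. The first 8 were Tmsb4x, Igfbp7, Lum, Igfbp4, Fn1, Ftl1, Eln and Fbn1, which encode proteins of the cytoskeleton, of the matrix, binders of growth factors and an iron store. Tmsb4x had correlations of 0.35 over 851 PD1 KO spots and 0.30 over 811 PD1 Het spots, and Fbn1 of 0.25 in each section. Of the 17 pathway genes among the 6128, Ifi27l2a ranked highest, at position 74 with 0.17 in the PD1 KO section and 0.18 in the PD1 Het section. These weak values are a description, since spots share depth and tissue composition. The ranked genes were not matched in abundance. In the PD1 KO section Ifi27l2a had 810 UMIs, against 5265 for Igfbp4 and 36187 for Tmsb4x. Ifitm3 gave 4043 of the 5635 summed UMIs of the 8 genes there, so the ranking mostly follows Ifitm3.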

How the data were processed

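The authors deposited raw UMI counts per gene and spot for 1 PD1 KO and 1 PD1 Het section, and per the file headers Space Ranger 1.1.0 wrote them. Builds named in the submitters' processing notes are mm10 and GRCm38. For aligner settings, annotation release, strand setting and the rule for spots kept, the answer is not given in the sources used here. Spot positions were not used. Per the labels, 10 um sections taken 200 um below the suture were permeabilized for 18 min.

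Spots under 500 UMIs were left out, and the UMIs of each section were added up and turned into CPM over all genes. Intervals are exact Poisson (levels), exact binomial (shares) and exact conditional (ratios). The limit for a count of 0 is 3 counts. List medians, counts past 1.5-fold and the median gene use a prior count of 0.5 and genes whose UMIs of both sections, or of the 2 bins compared, add up to 10 or more. Ratios of single genes use no prior count. Thinning drew UMIs without replacement with a fixed seed. The ratio code was tested on simulated data. GENCODE vM21 (GRCm38) held 32235 of 32285 gene IDs and gave positions and transcripts, and RefSeq (GRCm38.p6) gave promoter windows for 7 of the 8 genes. Python 3.11.15, numpy 2.4.6, scipy 1.17.1, pandas 2.3.3 and edgeR 4.0.16 (TMM factors as an alternative) were used.

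All 8 genes are named. In each pathway list the 2 most abundant genes and the 2 farthest from the median gene, of those with 30 UMIs or more, are named, and other list members only with a count. Oas2, Oasl1 and Cxcl10 were named after their values were seen. Some genes of the lists are not reported here by name. The 8 genes and all lists were chosen with earlier results of these data known, so they give no independent support. Alternatives were other scalings, spot and gene filters, leaving out the richest spot, 3 bins, a ranking by fibrillar collagens, and thinning to 5000 UMIs or none. The richest spot was each gene's own for single genes. For the summed level and its bin ratios it was the spot with the most UMIs of the 8 genes together.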

Additional observations from a re-analysis of the deposited data

Results flagged for a closer look

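Oas1a and Rtp4 stood out because their levels went opposite ways with matrix share in the 2 sections. For Oas1a the log2 ratio of bin 5 over bin 1 was -0.54 (-6.42 to 3.72) in the PD1 KO section, on 1 and 2 UMIs, and 2.59 (0.36 to 5.82) in the PD1 Het section, on 10 and 2 UMIs. For Rtp4 it was -0.27 (-0.95 to 0.39) in the PD1 KO section, on 32 and 53 UMIs, and 0.85 (-0.28 to 2.04) in the PD1 Het section, on 18 and 12 UMIs. Both intervals of Rtp4 and the PD1 KO interval of Oas1a include 0. The difference between the sections was not tested, as there is 1 section per genotype.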

How the results depend on the processing

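The log2 ratio of the summed level, 0.14 by CPM, was -0.16 with edgeR TMM factors, -0.17 with median-of-ratios size factors and -0.036 with a CPM total without mitochondrial and red blood cell genes. The median gene, at 0.32 by CPM, then lay at 0.017, 0.015 and 0.14. The count of genes at least 1.5-fold below the median gene was 1 in place of 2 with genes of at least 100 UMIs, because Oas1a and Ifit1 then drop out. With spots of at least 10000 UMIs it was 3, as Ifit1 then lay at -0.595. The log2 ratio of bin 5 over bin 1 without mitochondrial and red blood cell genes in the total was 0.47 in the PD1 KO section and 0.72 in the PD1 Het section. The main values were 0.59 and 0.92, and with 3 bins the PD1 Het value was 0.69. The share of spots with a UMI of any of the 8 genes, 89.5% in the PD1 KO section and 83.3% in the PD1 Het section, was 67.7% and 64.9% after thinning to 5000 UMIs and 99.1% and 92.5% without thinning. All 54 alternative values of single genes, and the 31 other alternative values of the summaries, stayed within the main intervals or within 1.5 times the main count. Values relative to the median gene cannot change with another scaling, which shifts all genes alike. Those among the 54 and the 31 that are relative to the median gene and come from another scaling were thus fixed in advance and are no check. No paired analysis was possible because each genotype has 1 section and no test was run. Depth limits Oas1a and Ifit1 most, at 13 to 39 UMIs per section.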

Other observations

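The spots with the most UMIs of the 8 genes were picked by UMIs and after their values were seen. In the PD1 KO section the first 3 had 22, 19 and 18 UMIs of these genes, mostly Ifitm3, in spots of 28118, 24304 and 41614 UMIs. Their macrophage shares lay at the percentiles 98.1, 3.17 and 22.7 of that section, and 1 of them was in matrix bin 5 and 2 in bin 3. The second held 4 Isg15 UMIs and a lymphatic endothelial share at the percentile 98.7. In the PD1 Het section the first 3 had 22, 15 and 13 UMIs of these genes, all in bin 5 and all with a macrophage share at or above the percentile 97.5. The first of these held 6 of the 8 genes at once, with 7 UMIs of Ifitm3, 6 of Bst2, 4 of Irf7, 3 of Isg15 and 1 each of Oas1a and Ifit3, in a spot of 12424 UMIs. Spots are not replicates, and these values were not tested.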
